A study of Mus musculus with 2 samples.

Results

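Claudins are the membrane proteins that form the strands of tight junctions, and 10 of them (Cldn1, Cldn2, Cldn3, Cldn4, Cldn5, Cldn7, Cldn8, Cldn10, Cldn16 and Cldn19) were described here across the cell types of newborn mouse kidney. They were chosen by symbol from the 55488 gene rows of the deposited matrices, and all 10 were found in both libraries with the identifiers of the GENCODE annotation. The set holds claudins of each nephron segment and 1, Cldn5, that is best known from endothelium.

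Each claudin spans the membrane with extracellular loops that pair with claudins of the next cell. Some claudins form pores that let chosen ions or water pass between cells, and others seal this route, so the mix of claudins in a segment sets what crosses its epithelium by the paracellular path. In kidney, the proximal tubule is leaky and carries pores for cations, anions and water, the thick ascending limb of the loop of Henle reabsorbs sodium, calcium and magnesium between its cells, and the distal nephron and collecting duct form a tighter barrier.

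The Flcn KO library came from kidneys in which both floxed alleles of Flcn, the gene of folliculin, met Six2-Cre (Six2-Cre; Flcn flox/flox). The Flcn WT library came from Six2-Cre; Flcn flox/+ kidneys, so it carried Cre and 1 floxed allele and was heterozygous rather than wild type. Both were taken at postnatal day 0, and the tissue label reads embryonic kidney. Six2-Cre acts in nephron progenitors and therefore in the nephron that descends from them, from podocyte to distal tubule, but not in the ureteric bud that gives the collecting duct, nor in stroma or endothelium. The study's title places its question in the loops of Henle, where cysts form after Flcn loss. The number of animals behind each library was not given in the sources used here.

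Each genotype had 1 library, so no difference between them had a replicate check. No test was made, and each 95% interval given covers counting error only. The Flcn KO library held 149679281 UMIs (unique molecular identifiers, 1 per captured RNA molecule) in 5991 barcodes, and the Flcn WT library held 147390790 UMIs in 5572 barcodes. After filtering, 4798 Flcn KO and 4000 Flcn WT cells remained, with medians of 18458 UMIs per Flcn KO cell and 20960 UMIs per Flcn WT cell. The libraries shared 5 barcodes, 1 of them among the cells kept. Over all barcodes Flcn stood at 11 CPM in the Flcn KO library and 12.2 CPM in the Flcn WT library (CPM, UMIs scaled to a fixed total of nuclear-encoded UMIs). This total includes stroma and endothelium, which Six2-Cre does not reach. Among classes within its reach (named below), Flcn stood at 12.2 CPM in Flcn KO and 23.1 CPM in Flcn WT proximal tubule. It stood at 9.33 CPM in Flcn KO and 7.51 CPM in Flcn WT loop of Henle, and at 36.3 CPM in Flcn KO and 20.9 CPM in Flcn WT podocytes. Distal tubule had 10.6 CPM in each library. Which exons the deletion removed was not given in the sources used here, so these levels do not check the labels.

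Cells were grouped into 12 classes by marker genes, with claudins and other tight junction genes kept out of the clustering. The classes used most below held 343 Flcn KO and 422 Flcn WT cells (proximal tubule), 202 Flcn KO and 137 Flcn WT cells (loop of Henle), 64 Flcn KO and 121 Flcn WT cells (distal tubule), 82 Flcn KO and 183 Flcn WT cells (ureteric bud and collecting duct) and 478 Flcn KO and 565 Flcn WT cells (early nephron). All 16 proximal tubule markers and all 10 podocyte markers were highest in the class named for them in both libraries. Of 12 loop of Henle markers, 7 in the Flcn KO library and 6 in the Flcn WT library were highest in that class, and of 11 distal tubule markers 5 in the Flcn KO library and 10 in the Flcn WT library were highest in theirs. Only 3 of 16 collecting duct markers in the Flcn KO library and 2 of 16 in the Flcn WT library were highest in the ureteric bud and collecting duct class, and others, Aqp2 among them, stood higher in the small intercalated class (14 Flcn KO and 42 Flcn WT cells). In a level summed over a class, fewer cells with a transcript and less of it per cell cannot be told apart, so the share of cells with a UMI is given for the main results.

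Cldn3 and Cldn4 are neighbours on mouse chromosome 5. Cldn4 lies on the minus strand at chr5:134945119-134946934 and Cldn3 on the plus strand at chr5:134986214-134987472 (GRCm38), with 39279 bases and no other coding gene between them. Cldn10, on chromosome 14, has 3 coding transcripts whose starts lie 66824 bases apart and which share the last exon. Its isoforms, known to form cation or anion pores depending on the first exon, could therefore not be separated by reads from the 3′ end. RefSeq gives other starts for Cldn10 than this annotation. The 250 bases upstream of RefSeq starts are shown because Cldn3 and Cldn4 had the largest ratios between the libraries, and because Cldn10 has separate starts for its isoforms. They follow RefSeq's annotation of GRCm38.p6, by which the first and last Cldn10 starts are named here, and are written 5′ to 3′ on the strand of the gene.

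Cldn4, chr5:134946935-134947184, minus strand: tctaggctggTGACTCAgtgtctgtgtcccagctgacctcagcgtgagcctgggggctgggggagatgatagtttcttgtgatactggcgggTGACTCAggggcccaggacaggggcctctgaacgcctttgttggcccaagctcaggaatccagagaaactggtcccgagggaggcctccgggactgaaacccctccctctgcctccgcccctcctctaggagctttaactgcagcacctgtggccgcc

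Cldn3, chr5:134985964-134986213, plus strand: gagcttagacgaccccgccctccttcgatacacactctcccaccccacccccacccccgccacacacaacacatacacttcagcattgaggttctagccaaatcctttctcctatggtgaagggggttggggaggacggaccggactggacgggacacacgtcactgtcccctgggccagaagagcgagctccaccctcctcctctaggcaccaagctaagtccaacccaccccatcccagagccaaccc

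Cldn10, first start, chr14:118787621-118787870, plus strand: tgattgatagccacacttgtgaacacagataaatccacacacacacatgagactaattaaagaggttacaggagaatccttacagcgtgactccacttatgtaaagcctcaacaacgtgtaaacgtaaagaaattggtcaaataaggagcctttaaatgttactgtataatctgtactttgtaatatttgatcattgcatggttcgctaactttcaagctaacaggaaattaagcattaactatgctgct

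Cldn10, last start, chr14:118854700-118854949, plus strand: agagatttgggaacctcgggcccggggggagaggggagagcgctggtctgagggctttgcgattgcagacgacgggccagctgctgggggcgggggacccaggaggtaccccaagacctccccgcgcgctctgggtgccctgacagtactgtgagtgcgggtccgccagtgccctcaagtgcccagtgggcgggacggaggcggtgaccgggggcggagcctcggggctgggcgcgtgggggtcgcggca

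Capitals mark the letters TGANTCA, the AP-1 motif, which was found at 240 and 158 bases upstream in the Cldn4 window and was absent from the other 3 windows shown. Promoter windows of 9 of the 10 claudins were found, 12 windows in all. Both strands were searched for 4 motifs. TGANTCA stood in 6.75% of all 32851 such windows in the mouse annotation and, among the claudins, only in that of Cldn4. AACCNGTT, the Grainyhead-like motif, stood in 1.79% of all windows and in that of Cldn5, at 20 bases upstream. The E-box CACGTG, bound by TFEB and related factors, stood in 6.02% of all windows, and the HNF1 motif in 0.0609%, and neither was in a claudin window. A match describes letters in the window and not a bound site.

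The class with the highest level was the same in both libraries for all 10 claudins. For Cldn4 and Cldn7 in the Flcn KO library, its interval overlapped that of the next class. Levels were compared between classes and libraries for 1 gene at a time. Endothelium served as the measure of stray RNA for the epithelial claudins, where those other than Cldn10 stood at 0.0581 to 1.40 CPM in the Flcn KO library and 0.186 to 1.21 CPM in the Flcn WT library.

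Cldn2, a pore for cations and water and the classical claudin of the proximal tubule, stood at 386 CPM (interval 376 to 395, 6310 UMIs) in Flcn KO proximal tubule and 489 CPM (479 to 499, 8484 UMIs) in Flcn WT proximal tubule. The next class was early nephron, with 36.4 CPM in Flcn KO and 34.1 CPM in Flcn WT cells, and every other class was at or below 3.09 CPM in Flcn KO and 2.09 CPM in Flcn WT cells. Within early nephron, Cldn2 was highest in the cluster led by Grid1, Cdh6 and Osr2 (76.9 CPM in Flcn KO, 69.5 CPM in Flcn WT). It had 5 UMIs in Flcn KO and 8 UMIs in Flcn WT cells of the cluster led by Lhx1, and 7 UMIs in Flcn KO and 79 UMIs in Flcn WT cells of the cluster led by Spon1, Lgr5 and Sim2.

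Cldn10, which forms cation or anion pores according to its isoform, was highest in loop of Henle, with 1271 CPM in Flcn KO and 1556 CPM in Flcn WT cells. Proximal tubule came next with 173 CPM in Flcn KO and 292 CPM in Flcn WT cells. The intervals of these neighbours in the order did not overlap in either library.

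Cldn16 and Cldn19, partners in the cation-selective junction of the thick ascending limb and both mutated in human familial hypomagnesaemia, were also highest in loop of Henle. Cldn16 stood at 38.2 CPM in Flcn KO and 75.2 CPM in Flcn WT loop cells. Cldn19 stood at 196 CPM in Flcn KO and 318 CPM in Flcn WT loop cells. Distal tubule came second for both genes in both libraries. For Cldn16 in the Flcn KO library its interval (3.77 to 10.0) overlapped that of the intercalated class (0.0296 to 6.52). Flcn WT distal tubule held 56.6 CPM of Cldn16 and 70.0 CPM of Cldn19. At the finer clustering described below, which moved 21 Flcn WT distal cells to the loop class, it held 4.56 CPM of Cldn16 and 37.3 CPM of Cldn19. For Cldn19 in the Flcn KO library, distal tubule (30 CPM) and ureteric bud and collecting duct (27.7 CPM) did not differ beyond their intervals.

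Cldn3, Cldn4, Cldn7 and Cldn8, claudins of the distal nephron and collecting duct of which Cldn4 and Cldn8 are known to act together on the chloride pathway of the collecting duct, shared another pattern. In Flcn KO ureteric bud and collecting duct cells Cldn3 stood at 349 CPM, Cldn4 at 247 CPM, Cldn7 at 454 CPM and Cldn8 at 232 CPM. The Flcn WT values were 230 CPM for Cldn3, 191 CPM for Cldn4, 384 CPM for Cldn7 and 218 CPM for Cldn8. Distal tubule was lower than this for Cldn3 and Cldn7 in both libraries. Cldn8 stood at 252 CPM in Flcn KO distal tubule, where its interval overlapped that of the collecting duct, and at 270 CPM in Flcn WT distal tubule, above the collecting duct. The small intercalated class had the highest Cldn8, 460 CPM in Flcn KO and 485 CPM in Flcn WT cells, and the highest Cldn4, 261 CPM in Flcn KO and 227 CPM in Flcn WT cells. Aqp2, a collecting duct marker, stood there at 1639 CPM in Flcn KO and 1438 CPM in Flcn WT cells. In ureteric bud and collecting duct it stood at 690 CPM in Flcn KO and 897 CPM in Flcn WT cells. The Cldn4 and Cldn8 levels of this mixed class therefore cannot be placed in intercalated cells as such. In the Flcn KO library the Cldn4 intervals of the intercalated class and collecting duct overlapped. Cldn7 was the broadest of the 4, with 210 CPM in Flcn KO and 109 CPM in Flcn WT proximal tubule. Cldn8 was low in proximal tubule, at 0.733 CPM in Flcn KO and 1.90 CPM in Flcn WT cells, against 0.639 CPM in Flcn KO and 0.928 CPM in Flcn WT endothelium.

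Cldn5, known as the claudin of endothelial junctions, was highest in podocytes, with 836 CPM in Flcn KO and 781 CPM in Flcn WT cells. Endothelium followed with 757 CPM in Flcn KO and 691 CPM in Flcn WT cells. The early nephron cluster led by Lhx1 also held Cldn5, at 125 CPM in Flcn KO and 109 CPM in Flcn WT cells. Between the libraries the ratio was 1.07 (1.02 to 1.12) in podocytes and 1.09 (1.06 to 1.13) in endothelium.

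Cldn1, known from the parietal cells of Bowman's capsule and from skin, was highest outside the epithelium in these data. Stroma held 66.1 CPM in Flcn KO and 52.9 CPM in Flcn WT cells, a ratio of 1.25 (1.16 to 1.35). Podocytes held 35.1 CPM in Flcn KO and 21.1 CPM in Flcn WT cells, a ratio of 1.66 (1.27 to 2.18).

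**Figure D1:**
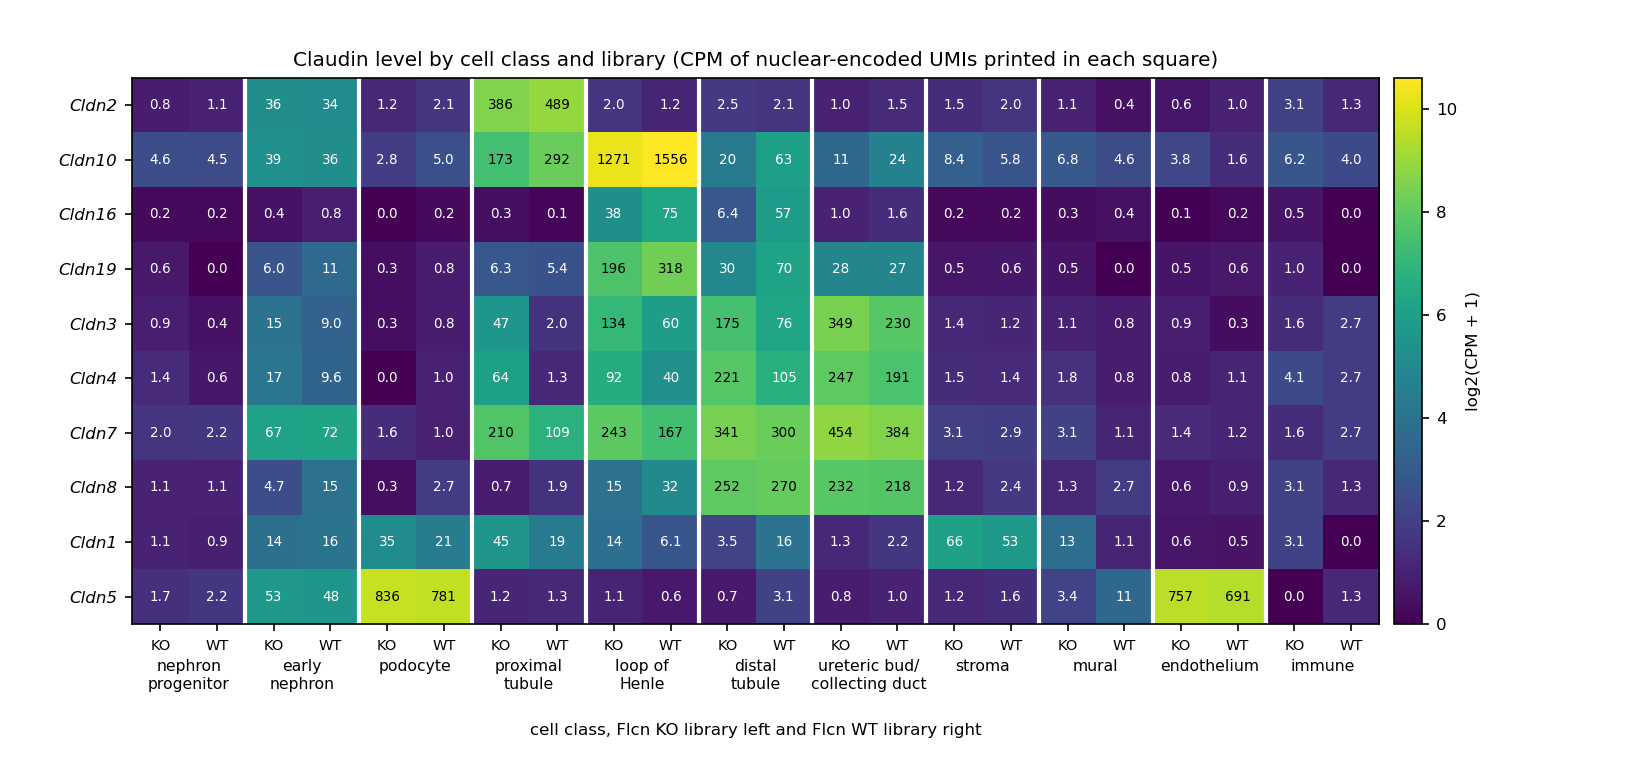
Claudin levels by cell class, with the Flcn KO library left and the Flcn WT library right in each pair. Colour is log2(CPM + 1) and the printed number is CPM of nuclear-encoded UMIs. Examples of the highest class are Cldn2 in proximal tubule (386 CPM in Flcn KO, 489 CPM in Flcn WT), Cldn10 in loop of Henle (1271 CPM in Flcn KO, 1556 CPM in Flcn WT), Cldn5 in podocytes (836 CPM in Flcn KO, 781 CPM in Flcn WT). The paired squares differ most for Cldn3 and Cldn4 in proximal tubule. The intercalated class is not drawn.

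Genes whose levels followed those of a claudin most closely were ranked over 22 points, 11 classes in each of the 2 libraries, by Pearson's r of log2(CPM + 10), with claudins left out of the ranking. The points share libraries and depth, so r is a description of shared class patterns. Cldn7 was followed by Ocln, the gene of the junction protein occludin (r = 0.99), by Arhgef38 (r = 0.99) and by Cdh1, the gene of E-cadherin (r = 0.98). Cldn3 and Cldn4 shared Tmem171 (r = 0.97 with Cldn3, 0.98 with Cldn4) and Sfn (r = 0.97 with each) among their closest 3 genes, and were closer still to each other (r = 0.99). Cldn16 was followed by Gm47708 (r = 0.98) and by Slc12a1, the gene of the sodium-potassium-chloride cotransporter of the thick ascending limb (r = 0.96), Cldn19 by Pappa2 (r = 0.96), and Cldn10 by Slc9a3, the gene of the sodium-proton exchanger NHE3 (r = 0.96). Cldn8 was followed by Gm13652 and Esrp1 (each r = 0.98), Cldn2 by Cyp4a31, Glyat and Clrn3 (each r = 1.0) and Cldn5 by Ephb1 (r = 0.96). Cldn1 had the loosest match, C1qtnf3 (r = 0.85).

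In proximal tubule, Cldn3 and Cldn4 of the distal nephron and Cldn1 were higher in the Flcn KO library, while the pore claudins Cldn2 (ratio 0.789) and Cldn10 (0.592) stood below 1 within 2-fold. A claudin was counted as past the fold at a ratio, Flcn KO over Flcn WT, of at least 2 or at most 0.5, where both libraries together had at least 20 UMIs of it in the class. Of 9 claudins with enough UMIs, 3 were at least 2-fold higher in Flcn KO (Cldn1, Cldn3 and Cldn4), against 7.23% of all 15830 genes. Cldn8 alone was at least 2-fold lower, against 5.91% of all genes.

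Cldn4 had 1046 UMIs (63.9 CPM) in Flcn KO proximal tubule and 23 UMIs (1.33 CPM) in Flcn WT proximal tubule, a ratio of 48.2 (32 to 76.4). The Flcn WT level was close to that of endothelium in the same library (1.11 CPM). With each cell thinned to 3000 UMIs, 16.3% of 331 Flcn KO cells had a Cldn4 UMI (Clopper-Pearson interval 12.5 to 20.7), against 0 of 405 Flcn WT cells. Taken as 3 counts of the total, which is not a Clopper-Pearson limit, this 0 allows a share of up to 0.741%. Without thinning the shares were 35.3% of Flcn KO and 3.55% of Flcn WT cells, at medians of 46841 UMIs per Flcn KO cell and 39916 UMIs per Flcn WT cell. In endothelium thinned the same way, 0 of 456 Flcn KO and 0 of 294 Flcn WT cells had a Cldn4 UMI. By the same rule of 3 counts this allows up to 0.658% of Flcn KO and 1.02% of Flcn WT cells. The unthinned shares there were 3.04% of Flcn KO and 3.72% of Flcn WT cells, at medians of 26364.5 UMIs per Flcn KO cell and 22143 UMIs per Flcn WT cell.

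Cldn3 had 769 UMIs (47.0 CPM) in Flcn KO proximal tubule and 34 UMIs (1.96 CPM) in Flcn WT proximal tubule, a ratio of 24.0 (17.0 to 34.9). After thinning, 9.67% of Flcn KO and 0.494% of Flcn WT proximal tubule cells had a Cldn3 UMI. Cldn1 had 734 UMIs (44.9 CPM) in Flcn KO and 331 UMIs (19.1 CPM) in Flcn WT proximal tubule, a ratio of 2.35 (2.06 to 2.69). Cldn7 had 210 CPM in Flcn KO and 109 CPM in Flcn WT proximal tubule, a ratio of 1.93 (1.82 to 2.04), just under the fold. Cldn8 had 12 UMIs in Flcn KO and 33 UMIs in Flcn WT proximal tubule (ratio 0.386). It was near the endothelial level in the Flcn KO library and above it in the Flcn WT library (1.90 CPM against 0.928 CPM). Its call was lost under other settings (up to 0.677).

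The interval of the Cldn2 ratio in proximal tubule was 0.763 to 0.815 and that of the Cldn10 ratio was 0.565 to 0.620, with neither past the fold. After thinning, 63.1% of Flcn KO and 68.9% of Flcn WT cells had a Cldn2 UMI. For Cldn10 the thinned shares were 33.5% of Flcn KO and 50.1% of Flcn WT cells. Cldn19 was low in this class, at 6.29 CPM in Flcn KO and 5.42 CPM in Flcn WT cells, and its interval held 1.

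The Cldn3 and Cldn4 molecules sat in few cells. In Flcn KO proximal tubule, the 34 cells with the most Cldn4 carried 78.7% of its UMIs, up to 86 UMIs in 1 cell, while the median cell had 0. For Cldn2 the top 34 cells carried 24.0% of the UMIs and the median cell had 16. Among Flcn KO cells with a UMI of Havcr1, the gene of the injury-induced membrane protein KIM-1, 39.7% of 63 cells also had a Cldn4 UMI after thinning, against 10.8% of 268 cells without one. For Cldn3 the shares were 27.0% with Havcr1 and 5.6% without. Cldn4 was likewise seen in 43.8% of 32 Flcn KO cells with a Cldn3 UMI and 13.4% of 299 cells without. Cells of 1 library share their source, so these shares describe that library. Havcr1 itself had 137 CPM in Flcn KO and 6.57 CPM in Flcn WT proximal tubule.

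Clustering anew at the finer Leiden resolution of 2 gave 5 clusters named proximal tubule, which the libraries filled unequally. They held 380 Flcn KO and 469 Flcn WT cells, of which 37 Flcn KO and 48 Flcn WT cells, all in cluster 39, belonged to early nephron at resolution 1. Cluster 7, led by Kcnip4, Gpx3 and Havcr1, held 176 Flcn KO and 5 Flcn WT cells. It carried 1020 of the Cldn4 UMIs (106 CPM) and 724 of the Cldn3 UMIs (75.2 CPM) of the Flcn KO library, and its 5 Flcn WT cells had 0 Cldn4 and 7 Cldn3 UMIs. In cluster 42, led by Slc5a12 and Spp2, Cldn4 had 3 UMIs in 38 Flcn KO cells and 6 UMIs in 195 Flcn WT cells. In cluster 39 it had 1 UMI in 80 Flcn KO cells and 2 UMIs in 91 Flcn WT cells, and in cluster 9 it had 6 UMIs in 56 Flcn KO cells and 16 UMIs in 140 Flcn WT cells. Cluster 34, which was shallow, had 16 Cldn4 UMIs (92.5 CPM) in 30 Flcn KO cells and 0 in 38 Flcn WT cells. Without clusters held at 90% or more by 1 library, the ratio was 2.48 for Cldn4, 3.51 for Cldn3 and 0.954 for Cldn1. In clusters 42, 9 and 39, taken singly, the interval of the Cldn4 ratio held 1 (2.71, 0.719 and 0.613). For Cldn3 it lay above 1 in cluster 9 (3.60, 1.90 to 7.06) and held 1 in clusters 42 and 39 (2.71 and 1.09). In the shallow cluster 34 it also lay above 1 for Cldn3 (11.9, 1.59 to 528) and Cldn1 (8.92, 1.08 to 410). These rest on 8 Cldn3 and 6 Cldn1 UMIs in Flcn KO cells and 1 UMI of each in Flcn WT cells. Cldn7 had a ratio of 12.9 (3.95 to 66.5) in cluster 34, 1.21 in cluster 9, 1.14 in cluster 42 and 0.662 in cluster 39. The Cldn1 ratio past the fold rested on cluster 7, in which both libraries had more Cldn1 (63.5 CPM in Flcn KO, 92.9 CPM in Flcn WT) than in clusters 42, 9 and 39.

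Cldn10 behaved otherwise. It was lower in the Flcn KO library in the 3 deeper clusters that both libraries filled: 173 CPM in Flcn KO and 367 CPM in Flcn WT cells of cluster 42 (ratio 0.471, 0.415 to 0.532), 129 CPM in Flcn KO and 176 CPM in Flcn WT cells of cluster 9 (0.734), and 186 CPM in Flcn KO and 255 CPM in Flcn WT cells of cluster 39 (0.731). In the shallow cluster 34 its ratio was 1.12 (0.737 to 1.70). Cldn2 was lower in Flcn KO cells in clusters 42 (0.817) and 9 (0.672), while in cluster 39 the interval held 1 (1.05, 0.968 to 1.15).

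Markers of other cells in the proximal tubule class were measured beside these values. The 16 collecting duct markers summed to 213 CPM in Flcn KO and 109 CPM in Flcn WT proximal tubule, against 5390 CPM in Flcn KO and 5263 CPM in Flcn WT cells of their own class. Of these markers, 3 were higher in the Flcn KO library and 13 were under 5 CPM in each library. The 3 higher markers, which are not named here, did not include Aqp2 or Avpr2. Aqp2, the collecting duct water channel, was at 0.917 CPM in Flcn KO and 2.07 CPM in Flcn WT proximal tubule, and Avpr2 had 0 UMIs in Flcn KO proximal tubule. The proximal tubule markers themselves summed to 14070 CPM in Flcn KO and 24534 CPM in Flcn WT cells. The part of this in the claudin ratios was not tested.

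**Figure D2:**
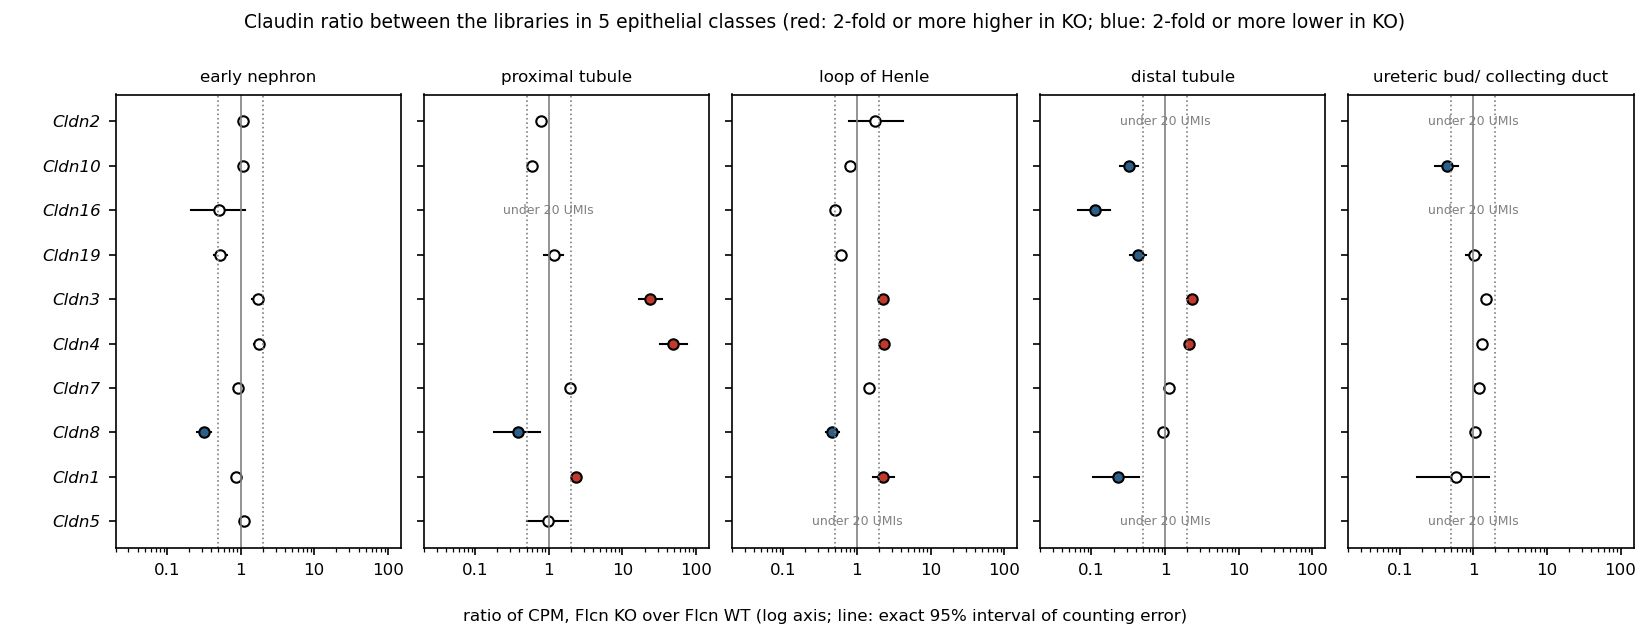
Ratio of CPM, Flcn KO over Flcn WT, of each claudin in 5 epithelial classes on a log axis, with the exact 95% interval of counting error from 1 library per genotype. Filled points are at least 2-fold higher (red) or lower (blue) in Flcn KO, and dotted lines mark 2-fold. Cldn3 and Cldn4 stand at 24.0 and 48.2 in proximal tubule and near 2 in loop of Henle and distal tubule, and Cldn10, Cldn16 and Cldn19 lie left of 1 in loop of Henle.

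In loop of Henle, Cldn1, Cldn3 and Cldn4 were higher in the Flcn KO library and Cldn8 was lower, while the thick ascending limb claudins Cldn10, Cldn16 and Cldn19 had ratios below 1 that did not pass the fold. Of 9 claudins with enough UMIs, those 3 were at least 2-fold higher, against 5.56% of all 14775 genes, and Cldn8 was at least 2-fold lower, against 8.28%. Cldn16 had 434 UMIs (38.2 CPM) in Flcn KO and 581 UMIs (75.2 CPM) in Flcn WT loop cells, a ratio of 0.508 (0.447 to 0.576), just above the fold. Cldn19 had a ratio of 0.615 (0.581 to 0.652) and Cldn10 a ratio of 0.817 (0.797 to 0.837). Under other settings Cldn16 ranged from 0.258 to 0.520 and Cldn19 from 0.496 to 0.761, while Cldn10 ranged from 0.662 to 1.14, the last at resolution 0.5, so its direction did not hold throughout. Markers of other cells also differed within the loop class. The 11 distal tubule markers summed to 7975 CPM in Flcn KO and 5492 CPM in Flcn WT loop cells. Only 4 of the 11 were higher in Flcn KO, and the Flcn KO sum exceeded that in Flcn KO distal tubule itself (5445 CPM). The 15 early nephron markers summed to 838 CPM in Flcn KO and 1660 CPM in Flcn WT loop cells, with 2 higher in Flcn KO. The 13 stroma markers, all higher in Flcn KO, summed to 92.4 CPM in Flcn KO and 43.5 CPM in Flcn WT loop cells. The part of these marker lists in the ratios was not tested.

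The share of cells with a UMI was lower in Flcn KO cells for Cldn16 and Cldn19. After thinning, 10.2% of 197 Flcn KO and 21.3% of 127 Flcn WT loop cells had a Cldn16 UMI. For Cldn19 the shares were 41.6% of Flcn KO and 59.1% of Flcn WT cells, and for Cldn10, whose intervals overlapped, they were 89.8% of Flcn KO and 96.1% of Flcn WT cells at 3000 UMIs and 96.4% of Flcn KO and 96.0% of Flcn WT cells at 5000 UMIs. The intervals of the Cldn19 shares did not overlap (34.7 to 48.8 in Flcn KO, 50 to 67.7 in Flcn WT), while those of Cldn16 did (6.31 to 15.2 in Flcn KO, 14.5 to 29.4 in Flcn WT). In thinned endothelium, 0 of 456 Flcn KO and 0 of 294 Flcn WT cells had a Cldn16 UMI. Unthinned, 48.0% of Flcn KO and 61.3% of Flcn WT loop cells had one, at medians of 50263 UMIs per Flcn KO cell and 43194 UMIs per Flcn WT cell.

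Cldn3 had 1521 UMIs (134 CPM) in Flcn KO and 461 UMIs (59.7 CPM) in Flcn WT loop cells, a ratio of 2.24 (2.02 to 2.49). Cldn4 had 1049 UMIs (92.4 CPM) in Flcn KO and 307 UMIs (39.8 CPM) in Flcn WT loop cells, a ratio of 2.32 (2.04 to 2.65). Unlike in proximal tubule these were spread over the class: the median Flcn KO loop cell had 5 Cldn3 and 3 Cldn4 UMIs, against 2 Cldn3 UMIs and 1 Cldn4 UMI in the median Flcn WT cell. The 20 Flcn KO cells with the most Cldn4 carried 40.6% of its UMIs. Cldn1 had 13.8 CPM in Flcn KO and 6.09 CPM in Flcn WT loop cells, a ratio of 2.27 (1.63 to 3.22). Cldn7 reached a ratio of 1.46 (1.36 to 1.56), and Cldn8, at 14.9 CPM in Flcn KO and 32.1 CPM in Flcn WT loop cells, had a ratio of 0.463 (0.379 to 0.566). Under other settings the ratio was as low as 1.91 for Cldn3, 1.21 for Cldn4 and 1.10 for Cldn1 and as high as 0.623 for Cldn8, so none of these 4 calls held throughout.

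At resolution 2, cluster 27, led by Umod, Ptger3 and Slc12a1, held 142 Flcn KO cells and 0 Flcn WT cells. Cluster 29, led by Slc12a1 and Pappa2, held 45 Flcn KO and 125 Flcn WT cells, of which 2 Flcn KO and 21 Flcn WT cells belonged to the distal tubule class at resolution 1. Inside cluster 29 Cldn16 was at 32.6 CPM in Flcn KO and 128 CPM in Flcn WT cells, a ratio of 0.255 (0.199 to 0.322). Cldn19 there was at 160 CPM in Flcn KO and 323 CPM in Flcn WT cells (0.496, 0.443 to 0.553), and Cldn10 at 1082 CPM in Flcn KO and 1603 CPM in Flcn WT cells (0.675, 0.646 to 0.705). Slc12a1 itself had a ratio of 0.520 (0.510 to 0.531) in the same cells. Cldn3 kept a ratio of 2.26 (1.96 to 2.62) inside cluster 29, while Cldn4 there had 1.20 (0.957 to 1.51). Cluster 27 had 103 CPM of Cldn4 and 135 CPM of Cldn3.

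Cldn14, known as an inhibitor of the Cldn16 and Cldn19 cation channel in the thick ascending limb, belonged to the other claudins followed for context. It had 300 UMIs (26.4 CPM) in Flcn KO and 46 UMIs (5.96 CPM) in Flcn WT loop cells, a ratio of 4.43 (3.24 to 6.19). In the shared cluster 29 it had 29 UMIs (12.3 CPM) in Flcn KO and 35 UMIs (5.55 CPM) in Flcn WT cells, a ratio of 2.21 (1.30 to 3.72). In the whole class, Umod, the gene of uromodulin, had a ratio of 3.04 (2.97 to 3.11) and Slc12a1 one of 0.648 (0.640 to 0.656).

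**Figure D3:**
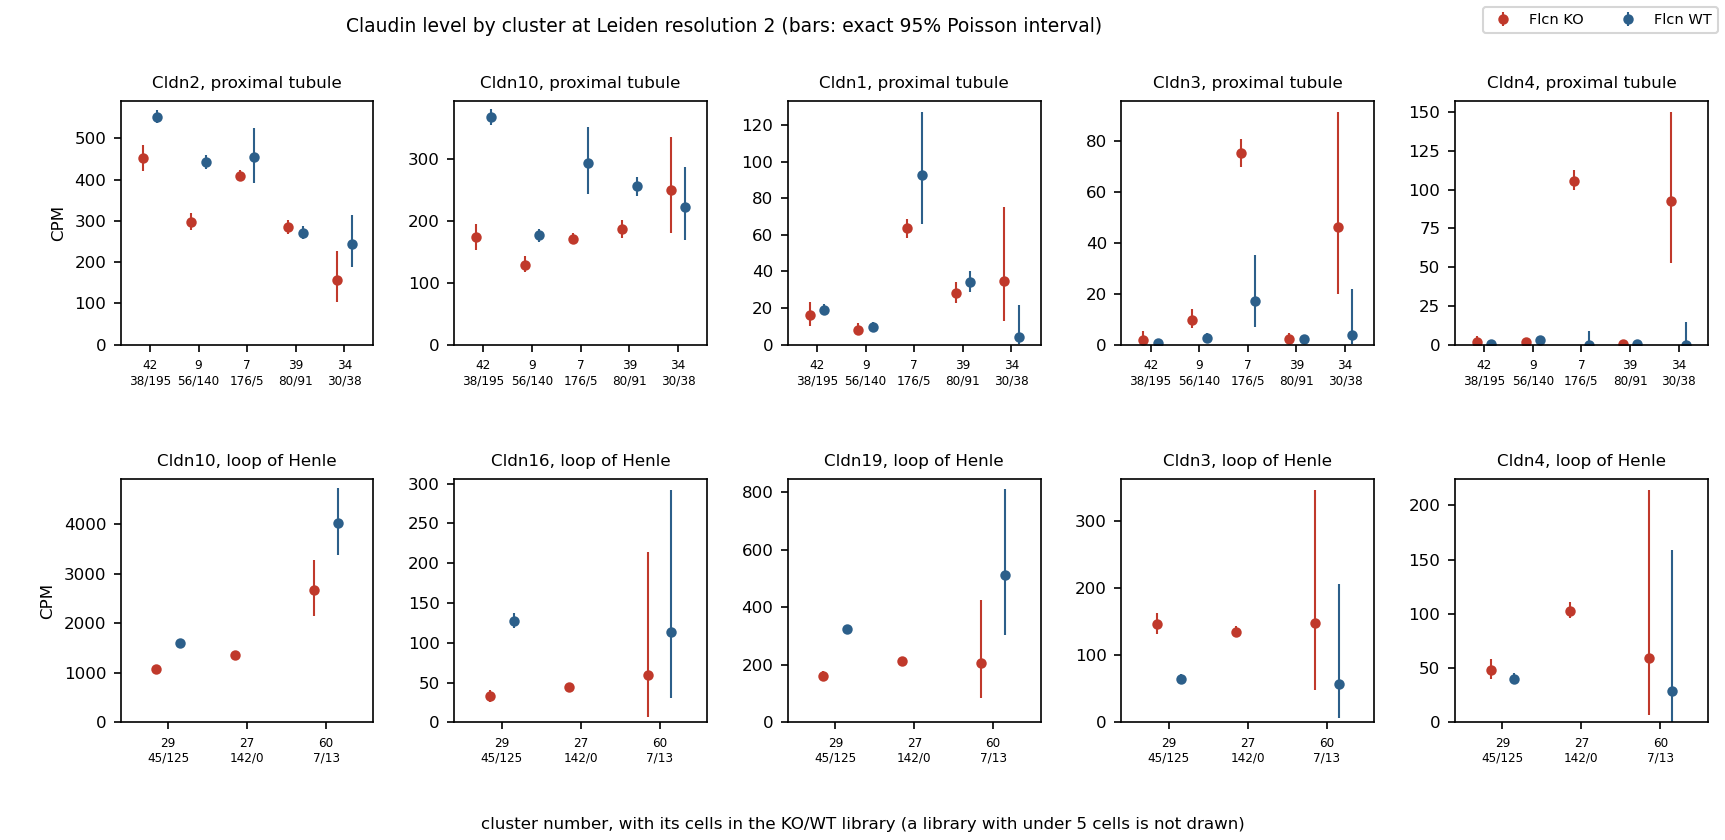
CPM of 5 claudins by cluster at Leiden resolution 2 in proximal tubule (top) and loop of Henle (bottom), Flcn KO in red left of Flcn WT in blue, with exact 95% Poisson intervals. The number pair under each cluster gives its Flcn KO and Flcn WT cells. Cldn4 stands at 106 CPM in proximal tubule cluster 7, held almost wholly by the Flcn KO library, and near 0 in clusters 42, 9 and 39, whereas Cldn10 in proximal tubule clusters 42, 9 and 39 and Cldn16 and Cldn19 in loop cluster 29 are lower in Flcn KO within clusters that both libraries fill.

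In early nephron, Cldn8 had 4.74 CPM in Flcn KO and 14.7 CPM in Flcn WT cells, a ratio of 0.322 (0.257 to 0.400; up to 0.715 under other settings), and was the only 1 of 10 claudins at least 2-fold lower, against 2.73% of all 19199 genes. None was at least 2-fold higher, against 2.02%. The early nephron cluster led by Spon1, Lgr5 and Sim2 (cluster 23 at resolution 1) held 67 Flcn KO and 68 Flcn WT cells and most of the class's Cldn8, 81 UMIs in Flcn KO and 427 UMIs in Flcn WT cells. Cldn8 was at 24.0 CPM (interval 19.0 to 29.8) in Flcn KO and 74.5 CPM (67.6 to 82.0) in Flcn WT cells of this cluster. Cldn19 was at 32.5 CPM (26.7 to 39.2) in Flcn KO and 56.0 CPM (50.1 to 62.5) in Flcn WT cells. The other direction was seen for Cldn3, at 71.3 CPM in Flcn KO and 31.9 CPM in Flcn WT cells, for Cldn4, at 83.4 CPM in Flcn KO and 46.6 CPM in Flcn WT cells, and for Cldn10, at 120 CPM in Flcn KO and 59.2 CPM in Flcn WT cells. Slc12a1, at 24.0 CPM in Flcn KO and 98.8 CPM in Flcn WT cells of this cluster, differed with them, and its part in these values was not tested. At resolution 2, cluster 30 held 67 Flcn KO and 68 Flcn WT early nephron cells with 10 Flcn KO and 20 Flcn WT loop cells. Cldn10 turned there, at 224 CPM in Flcn KO and 298 CPM in Flcn WT cells (ratio 0.752, 0.696 to 0.811). Cldn8 (0.341), Cldn19 (0.403), Cldn3 (2.04) and Cldn4 (2.09) kept their directions in cluster 30.

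In distal tubule, Cldn3 had 175 CPM in Flcn KO and 75.8 CPM in Flcn WT cells, a ratio of 2.31 (2.01 to 2.65). Cldn4 had 221 CPM in Flcn KO and 105 CPM in Flcn WT cells, a ratio of 2.10 (1.86 to 2.36). These were the 2 of 8 claudins at least 2-fold higher, against 5.41% of all 13144 genes. The other barrier claudins differed less, with ratios of 1.14 (1.05 to 1.23) for Cldn7 and 0.933 (0.851 to 1.02) for Cldn8. The claudins Cldn1, Cldn10, Cldn16 and Cldn19 were at least 2-fold lower, against 5.21% of all genes, led by Cldn16 with 18 UMIs in Flcn KO and 273 UMIs in Flcn WT cells (ratio 0.112, 0.0656 to 0.181). For Cldn10, 1 Flcn WT cell held 145 of the 302 Flcn WT UMIs. The cells compared were not alike, however. Slc12a1, which marks the loop of Henle, had 431 CPM in Flcn KO and 2375 CPM in Flcn WT distal tubule, and Slc12a3, the thiazide-sensitive cotransporter of the distal tubule, had 112 CPM in Flcn KO and 754 CPM in Flcn WT cells. At resolution 2, where the class held 62 Flcn KO and 100 Flcn WT cells, Slc12a1 was at 90.3 CPM in Flcn KO and 252 CPM in Flcn WT cells. There the ratio was 0.558 (0.197 to 1.40) for Cldn16, 0.781 (0.588 to 1.03) for Cldn19, 1.55 (0.674 to 3.57) for Cldn10 and 0.378 (0.168 to 0.773) for Cldn1. For the higher claudins it was 2.2 (1.91 to 2.55) for Cldn3 and 1.81 (1.61 to 2.04) for Cldn4, and at resolution 0.5 it was 0.692 for Cldn3 and 0.834 for Cldn4.

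In the ureteric bud and collecting duct, which Six2-Cre does not reach, 0 of 7 claudins were at least 2-fold higher in Flcn KO, against 1.86% of all 14818 genes, and Cldn10 was at least 2-fold lower, against 2.69%. Ratios were 1.51 (1.41 to 1.62) for Cldn3, 1.30 (1.20 to 1.40) for Cldn4, 1.18 (1.12 to 1.25) for Cldn7 and 1.07 (0.983 to 1.15) for Cldn8. At resolution 2 the class split into cluster 6, led by Nrg3 and Grik2, and cluster 37, led by Aqp2 and Fxyd4. Cldn4 had a ratio of 0.841 (0.736 to 0.960) in cluster 6 and 1.80 (1.62 to 2.0) in cluster 37, and Cldn3 had 1.25 (1.15 to 1.36) and 2.31 (2.04 to 2.62) in the same clusters. Over the whole class, 1 Flcn WT cell held 111 of the 211 Flcn WT Cldn10 UMIs, which the counting intervals do not cover. Cldn10 had 3 UMIs in Flcn KO and 118 UMIs in Flcn WT cells of cluster 37 (ratio 0.0602, 0.0122 to 0.180). Slc12a1 had 6 UMIs in Flcn KO and 671 UMIs in Flcn WT cells of the same cluster, and its part in the Cldn10 ratio was not tested. In cluster 6 the interval of the Cldn10 ratio held 1 (0.892, 0.595 to 1.31).

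The other genes of the tight junction were read from a list of 67 genes, the other claudins included, with no test of the list. In proximal tubule 44 had enough UMIs, of which 4 were at least 2-fold higher in Flcn KO, Cgn and Esam among them (against 7.23% of all genes), and 0 were lower (against 5.91%). Their median log2 ratio was 0.27, against 0.01 over all genes in the class. Cgn, the gene of the junction plaque protein cingulin, stood at 52.0 CPM in Flcn KO and 25.8 CPM in Flcn WT cells (ratio 2.02, 1.80 to 2.27). Esam, the gene of a cell adhesion molecule of junctions, had 23 UMIs in Flcn KO and 10 UMIs in Flcn WT cells (2.44, 1.12 to 5.74). These counts were low: Cldn5, highest in podocytes and endothelium, had 20 UMIs in Flcn KO and 22 UMIs in Flcn WT proximal tubule. The lowest named genes were Jam3 (0.771), Cgnl1 (0.796) and Cldn6 (0.80).

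In loop of Henle 46 genes of the list had enough UMIs, of which 6 were at least 2-fold higher (Cldn9, Cldn11, Cldn14, Ildr2, Magi2 and Prkcz), against 5.56% of all genes, and 3 lower (Esam, Jam3 and Mpdz), against 8.28%. The median log2 ratio was 0.06, against -0.04 over all genes. Magi2, a scaffold of cell junctions, had 1106 CPM in Flcn KO and 333 CPM in Flcn WT loop cells (3.32, 3.19 to 3.47), and Ildr2, a protein of tricellular junctions, had a ratio of 2.91 (2.05 to 4.21). The junction adhesion molecules Esam (27 UMIs in Flcn KO, 77 in Flcn WT) and Jam3 (30 in Flcn KO, 66 in Flcn WT) and the scaffold gene Mpdz (0.478) were lowest.

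In distal tubule 43 genes of the list had enough UMIs, with 2 higher (Magi2 and Ildr2), against 5.41% of all genes, and 2 lower (Jam3 and Cldn9), against 5.21%, and a median of 0.12, against 0.03 over all genes. Magi2 there had 1374 CPM in Flcn KO and 206 CPM in Flcn WT cells, a ratio of 6.66 (6.21 to 7.14). In ureteric bud and collecting duct, of 44 genes, 0 were higher (against 1.86% of all genes) and Ildr2 was lower (against 2.69%), with a median of 0.07, against 0.03 over all genes. In early nephron, of 49 genes, Magi2 and Cldn14 were higher (against 2.02% of all genes) and 0 were lower (against 2.73%), with a median of -0.05, against -0.01 over all genes.

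**Figure D4:**
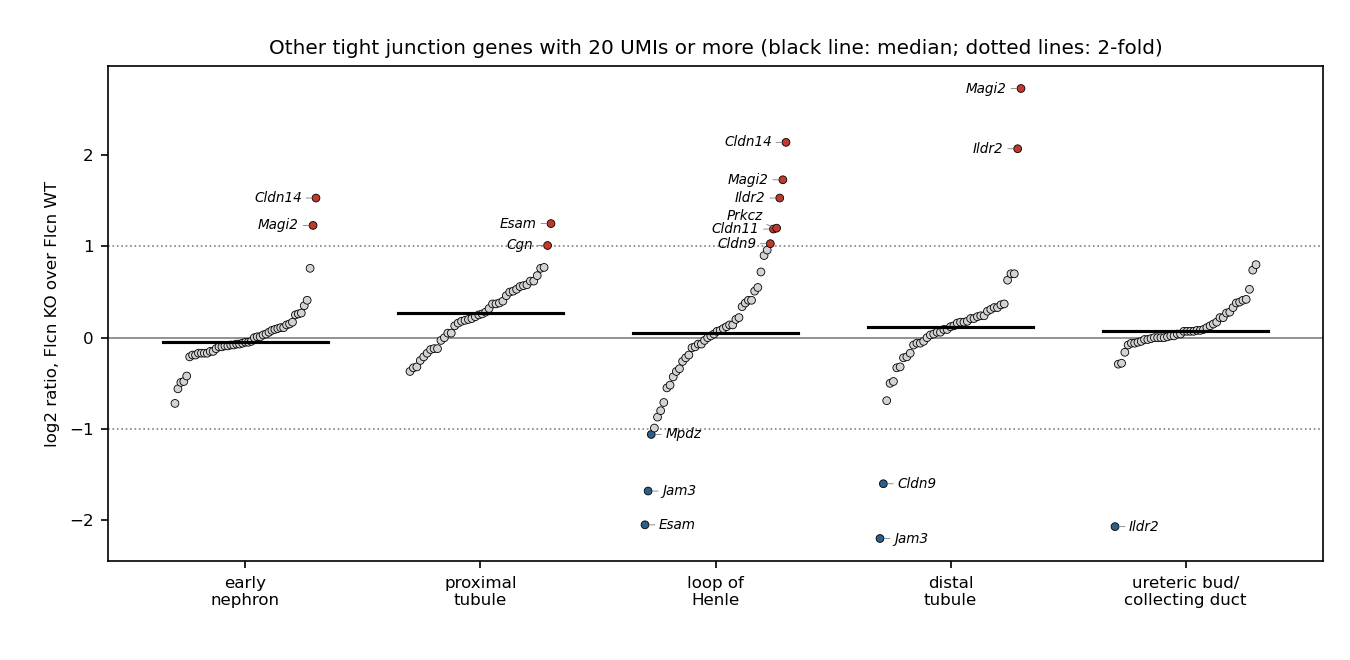
Log2 ratio, Flcn KO over Flcn WT, of the other tight junction genes with 20 UMIs or more in each of 5 classes, ordered by value. Black lines are medians and dotted lines mark 2-fold. Past 2-fold, only genes that the text names are drawn, while medians are over all genes counted. Esam (on few UMIs) and Cgn stand above the line in proximal tubule, where the median is 0.27, and Cldn14 leads in loop of Henle.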

How the data were processed

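Single-cell RNA was measured in 1 library of each genotype. Per the labels' protocols, the 10x 3′ kit was version 2. The tools named in the submitters' processing notes were STAR 2.7.2a, bcl2fastq 2.20.0 and Cell Ranger, with build GRCm38 (mm10). The headers of the matrices give Cell Ranger 7.1.0 (Flcn KO) and 7.0.0 (Flcn WT). The deposited matrices hold raw UMI counts for each gene and barcode, with at least 500 UMIs in every barcode. Other processing is not given in the sources used here.

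Barcodes with at least 1000 UMIs, 500 genes and at most 20% mitochondrial UMIs were kept. The last limit removed 11.6% of Flcn KO and 17.7% of Flcn WT barcodes. Scrublet (scanpy 1.11.5) scored doublets by library. Its own threshold called 48 Flcn KO and 52 Flcn WT barcodes, and the highest scores were removed at 0.8% per 1000 barcodes, 242 in Flcn KO and 187 in Flcn WT. Clustering used 2000 variable genes (without claudins, other junction genes, mitochondrial, ribosomal, haemoglobin and sex-linked marker genes), 40 components, 20 neighbours and the Leiden method at resolution 1 with igraph 0.11.9. Clusters took names from marker lists at a score of at least 0.35 and a lead of at least 0.05. Those without a name were split once at resolution 0.5, and 246 Flcn KO and 304 Flcn WT cells stayed unnamed. The naming thresholds and the split were set after seeing the data, and the members and lists were chosen with earlier results of these data known.

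UMIs were summed by class and library, giving CPM with exact Poisson intervals, ratios with exact conditional intervals and shares with Clopper-Pearson intervals (95%). For log2 ratios, 0.5 UMI was added to each sum. A share of 0 allows 3 counts of the total. Named genes were the 10 claudins, other claudins with at least 100 UMIs in a class, the 3 highest and 3 lowest junction genes with at least 50 UMIs in each of 4 classes, and the 3 genes most like each claudin (at least 200 UMIs, classes of at least 30 cells in each library). Junction genes outside this rule, and Flcn, Havcr1, Slc12a1, Slc12a3, Umod and Aqp2, were named after their values were seen. Some genes that the rule would name are not reported here. The ratio and the call rule were tested on simulated data. edgeR 4.0.16 and DESeq2 1.42.0 (R 4.3.3) gave scaling factors for alternatives, with no test.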

Additional observations from a re-analysis of the deposited data

Results flagged for a closer look

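Some claudins differed between the libraries in opposite directions in different classes. None of these differences between classes was tested, since each genotype had 1 library. Cldn1 had a ratio, Flcn KO over Flcn WT, of 2.35 in proximal tubule, 2.27 in loop of Henle and 11.7 in mural cells, and of 0.227 in distal tubule. Under other settings it was as low as 0.954 in proximal tubule and 1.10 in loop of Henle and as high as 1.44 in distal tubule, so these directions did not all hold. The mural value came from 51 UMIs in Flcn KO and 3 UMIs in Flcn WT cells (interval 3.78 to 58.5). Cldn10 had a ratio of 2.40 in endothelium (interval 1.39 to 4.36, 65 UMIs in Flcn KO, 17 UMIs in Flcn WT cells). Its ratio was 0.327 in distal tubule (up to 1.56 under other settings) and 0.437 in ureteric bud and collecting duct (up to 0.977). Of its Flcn WT UMIs, 1 cell held 145 of 302 in distal tubule and 1 cell held 111 of 211 in ureteric bud and collecting duct. The endothelial levels were 3.78 CPM in Flcn KO and 1.58 CPM in Flcn WT cells. They were no higher than in nephron progenitors (4.62 CPM in Flcn KO, 4.49 CPM in Flcn WT), where the ratio was 1.03 (0.669 to 1.58). After thinning, 1.32% of Flcn KO and 0.340% of Flcn WT endothelial cells had a Cldn10 UMI. These low counts lie in the class that served as the measure of stray RNA, and their source was not tested.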

How the results depend on the processing

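No paired analysis was possible because each genotype had 1 library. Over 14 alternative settings, 402 of 536 claudin ratios stayed within their interval, 127 moved outside it and 7 that had passed the fold changed side of 1, while the class with the highest level stayed the same in 168 of 174 cases. The higher Cldn3 and Cldn4 in proximal tubule stayed past 2-fold in all alternatives that gave a value (3.51 to 27.0 and 2.48 to 79.5). Both lowest values came without clusters of 1 library. There, 16 Flcn KO and 0 Flcn WT UMIs of Cldn4 lay in the shallow cluster 34. In clusters 42, 9 and 39, taken singly, the interval of the Cldn4 ratio held 1. The number of claudins at least 2-fold lower in proximal tubule was 0 with at most 10% mitochondrial UMIs, with at least 2000 UMIs, at resolution 2, with junction genes kept, after thinning and with at least 50 UMIs per gene, and 2 without doublet removal. The junction list median in proximal tubule was 0.13 with at most 10% mitochondrial UMIs, 0.15 without doublet removal and 0.14 without clusters of 1 library, where Cldn1 had a ratio of 0.954. In loop of Henle, 2 claudins were lower with at least 2000 UMIs, at resolution 0.5, with junction genes kept and without clusters of 1 library, 1 was higher after thinning, and the list median without clusters of 1 library was 0.29. In distal tubule, without doublet removal, 1 claudin was higher and 0 lower, with Cldn1 at 1.44 and Cldn10 at 1.56. At resolution 0.5 there 0 were higher and 2 lower, with Cldn3 at 0.692, Cldn4 at 0.834 and a list median of -0.23. At resolution 2 and with junction genes kept, 1 was higher and 1 lower in each, with Cldn10 at 1.55 and 1.54. After thinning 1 was higher and 0 lower. In ureteric bud and collecting duct 0 were lower with at most 10% mitochondrial UMIs and after thinning, and 2 without doublet removal, and the list median was 0.14 after thinning. In early nephron, 4 were lower with at most 10% mitochondrial UMIs, 3 with at least 2000 UMIs and at resolution 2, 2 by the mean over cells and 0 at resolution 0.5, 1 was higher at resolution 0.5 and by the mean over cells, and the list median after thinning was -0.09. The cause of these shifts was not tested. Leaving unnamed clusters unsplit, an alternative chosen after seeing the data, moved no count, median or ratio outside these limits, nor did scaling by edgeR or DESeq2 factors. Distal tubule had no value with at most 10% mitochondrial UMIs or at least 2000 UMIs, since no class of that name had enough cells. Classes of under 100 cells in a library limit the distal tubule and collecting duct values.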

Other observations

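Other claudins had patterns of their own. Cldn6, known from embryonic epithelia, was at 69.8 to 99.2 CPM in the tubule classes other than intercalated cells (36.3 CPM in Flcn KO, 34.6 CPM in Flcn WT), for example 81.1 CPM in Flcn KO and 69.8 CPM in Flcn WT loop of Henle, 75.1 CPM in Flcn KO and 93.9 CPM in Flcn WT proximal tubule, and 98.2 CPM in Flcn KO and 75.5 CPM in Flcn WT ureteric bud and collecting duct, but had 3 UMIs in Flcn KO and 8 UMIs in Flcn WT podocytes. Cldn11 lay in stroma, with 57.7 CPM in Flcn KO and 50.6 CPM in Flcn WT cells. Cldn15 lay in endothelium, with 30.9 CPM in Flcn KO and 41.4 CPM in Flcn WT cells, and in mural cells, with 13.4 CPM in Flcn KO and 30.5 CPM in Flcn WT cells. Cldn12 was highest in proximal tubule, with 49.3 CPM in Flcn KO and 49.4 CPM in Flcn WT cells. Cldn9 had 8.12 CPM in Flcn KO and 25.1 CPM in Flcn WT distal tubule, against 9.86 CPM in Flcn KO and 4.79 CPM in Flcn WT loop of Henle. None of these was tested.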
